A study of Mus musculus with 20 samples.

Results

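Late times of oxygen-glucose deprivation (OGD) were compared with middle times. OGD imitates in a dish what brain tissue loses when its blood supply stops. The late side pools 15 h and 24 h of OGD, with 3 arrays each, and the middle side pools 5 h and 8 h, with 3 arrays each, so that 12 of the 20 arrays of the series entered the comparison and each time had equal weight. All arrays came from primary cortical neurons of fetal Swiss albino mice, taken at gestational day 15 or 16 and kept to day 7 of culture. In the treated cultures the oxygen partial pressure was held below 50 mm Hg for the whole time, and the 5 control arrays came from cultures that received no agent. Total RNA was read on single-colour Illumina mouse bead arrays. The remaining 3 arrays, after 10 min of OGD, are given beside the results only as values. In bulk RNA of such cultures, fewer cells of a type and less RNA per cell cannot be told apart.

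Neurons deprived of oxygen and glucose lose ATP and depolarise. Neuronal activity and calcium entry induce immediate early transcription factors such as Fos, Egr and Npas4 family members. Stress kinases that phosphorylate the initiation factor eIF2 raise translation of ATF4, which drives amino acid transport, asparagine and one-carbon synthesis and tRNA charging. SREBP factors drive cholesterol synthesis, and NRF2 drives glutathione and thiol defence. Each of these programmes, and markers of the cell types that such cultures hold, was followed as a gene list.

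The arrays lay on 3 slides, which set how far the comparison reaches. All middle arrays shared slide 2 with controls 4 and 5, all late arrays shared slide 3 with controls 2 and 3, and slide 1 held control 1 and the 10 min arrays. Late against middle was therefore also fitted with slide as a block, which sets each side against the 2 controls of its own slide. Control 2 stood apart from the other controls: on the first principal component of the arrays without the 10 min time (55.8% of the variance) it lay at 10.7, against -22.5 to -12.1 for the other controls, -25.8 to -10.6 for the middle arrays and 21.5 to 30.8 for the late arrays. On the second component 5 h replicate 1 and 8 h replicate 3 lay at -18.6 and -22.5. Between 37% and 40.9% of the probes were detected per array, the median signal was 53.1 to 65.4, and precision was limited by how few arrays each time had. Before normalization the median signal was 53.1 to 55.6 on the late arrays and 55.5 to 61.2 on the middle arrays. On controls 2 and 3 it was 57.1 and 57.2. The part of this in the differences was not tested. Whether the replicates were separate cultures is not given by the labels, so the p-values cover the spread among these arrays, and that spread may be technical.

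Late arrays differed from middle arrays in more than every second probe tested. Of 10447 probes, 5491 (52.6%) differed, with 2550 higher late (24.4%) and 2941 lower (28.2%), at an adjusted p under 0.05 in limma. The 4 pairs of times were then tested one by one. At 15 h 2315 probes were higher and 2505 lower than at 5 h (46.1% of all probes), and 1674 were higher and 1761 lower than at 8 h (32.9%). At 24 h 2190 were higher and 2350 lower than at 5 h (43.5%), and 1366 were higher and 1399 lower than at 8 h (26.5%). In all 4 pairs 954 probes were higher (9.13%) and 798 lower (7.64%), for 772 and 652 genes, and 273 and 124 of these differed at least 2-fold. The 4 pairs share arrays, so passing all of them is a stricter cutoff and not 4 separate observations. Only genes past all 4 pairs are named as different below.

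With slide as a block, 1226 of the 10447 probes passed for late against middle (11.7%), 621 higher (5.94%) and 605 lower (5.79%). Of the probes higher in all 4 pairs 479 of 954 passed this pooled test with the block, and of those lower 302 of 798. When each of the 4 pairs was itself tested with the block, 27 probes passed all of them, 14 higher (0.134%) and 13 lower (0.124%), in place of 1752. Over genes by their brightest probe these were 9 higher (0.117%) and 11 lower (0.142%). Of the gene lists below, 2 activity genes, 1 glycolytic gene, 1 hypoxia-induced gene and 1 vascular marker passed all 4 pairs with the block, and no gene of the other lists did. Blocked counts and p-values given below are therefore those of the pooled test, late against middle. The medians that follow are descriptions, since the differences among the same 12 arrays chose the probes and enter the blocked fit. The median over the rises was 0.77 on the log2 scale, and 0.64 with the block, against -0.03 and -0.02 over all probes. Within slide 3 the late arrays stood above controls 2 and 3 by a median of 0.60 on these probes, while within slide 2 the middle arrays stood at -0.03 from controls 4 and 5. Over the falls the medians were -0.68, -0.50 with the block, -0.45 within slide 3 and 0.05 within slide 2. Late arrays differed from the controls of slide 3 in 2673 probes, 1364 higher (13.1%) and 1309 lower (12.5%), and in 878 to 3218 when 1 of those controls was left out. Middle arrays differed from the controls of slide 2 in 0 probes in limma (541 at an unadjusted p under 0.05). The controls of slide 3 differed from those of slide 2 in 0 probes (1156 at an unadjusted p under 0.05), but control 2 alone against controls 4 and 5 gave 1353 and control 3 alone 0.

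Averaged over the probes higher in all 4 pairs, the late arrays lay at 0.77 to 0.95 above the middle mean, the 5 h arrays at -0.11 to -0.07 and the 8 h arrays at 0.06 to 0.13. Control 2 lay at 0.49 and the other controls at -0.04 to 0.13. The 10 min arrays, on slide 1, lay at 0.60 to 0.67. Thus 1 untreated array and the earliest treated arrays also stood toward the late side on these probes, and the part of slide or of these arrays in the differences was not tested beyond the blocked fits.

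**Figure D1:**
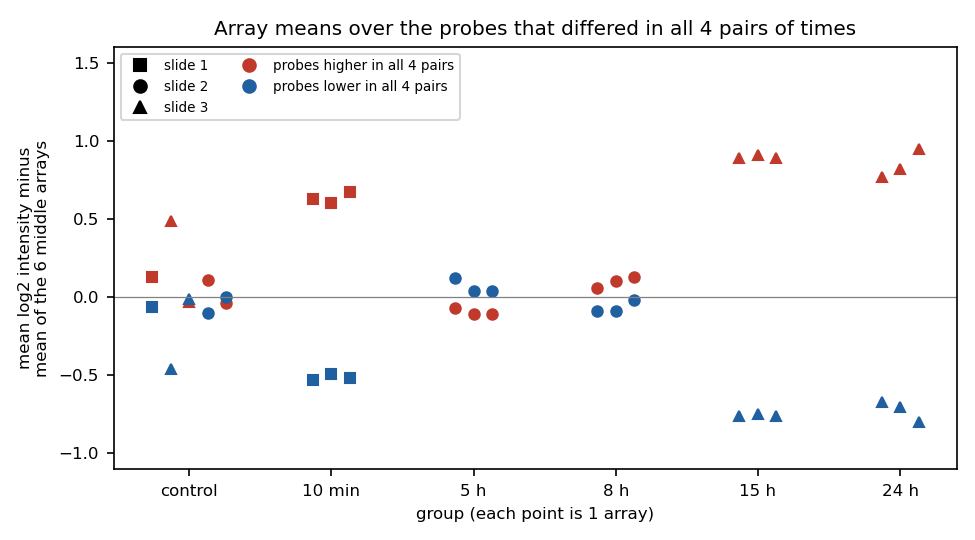
Each point is 1 array. The vertical axis is the mean log2 intensity over the 954 probes higher (red) or 798 probes lower (blue) in all 4 pairs of times, minus the mean of the 6 middle arrays, and marker shapes show the slide. The middle arrays lie near 0 because they set the zero, and the late arrays lie apart because their values chose the probes. The controls and 10 min arrays entered that choice only through the shared spread, the detection filter and the normalization. Control 2 and the 10 min arrays lie toward the late arrays.

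Among the named genes Bdh2, Rnase1, Fbxo2 and Dbp had the largest fitted rises. Bdh2, a cytosolic hydroxybutyrate dehydrogenase, read 9.65, 10.08 and 10.25 (lowest, median and highest normalized log2 intensity) on the late arrays and 6.0, 6.92 and 7.57 on the middle arrays. Controls 4 and 5 read 7.61 and 6.21, and controls 2 and 3 read 9.21 and 6.49. Every late array lay above every middle array, and control 2 lay between the sides. The difference was 3.13 ± 0.32 (SE, n = 6 against 6, adjusted p = 2.92e-07), an 8.73-fold rise, and 2.19 ± 0.63 with the slide block (adjusted p = 0.0322).

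Plin4, a lipid droplet coat protein, read 6.95, 7.70 and 7.98 late. It was detected on 0 of 6 middle arrays and was at least 4.66-fold higher late (adjusted p = 3.63e-08, 0.00988 with the block). Thrsp, a regulator of fatty acid synthesis, rose by 2.38 ± 0.19 (adjusted p = 2.54e-08), and by 1.57 with the block (adjusted p = 0.00848). Gsta4, a glutathione transferase for lipid peroxidation products, read 12.23 to 13.21 late and 10.02 to 11.01 in the middle, a 4.77-fold rise. On Gsta4 control 2 read 12.38, within the late range, and the other controls 10.20 to 11.07. With the block the difference was 1.52 on the log2 scale (adjusted p = 0.0392). Ugt1a7c, a glucuronosyltransferase, rose by 2.47 and 2.49 on its leading probes and by 2.30 on the remaining one. Members of the Ugt1a locus share exons, so the gene behind these probes is uncertain. The first of these probes passed the block (1.70, adjusted p = 0.0313) and the second missed it (1.43, adjusted p = 0.0637). Rida, an imine deaminase, rose by 2.22 and by 1.21 on another probe.

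Rnase1, a secreted ribonuclease, rose by 2.88 ± 0.25, or 7.34-fold, from 5.01 to 6.92 on the middle arrays, of which 4 detected it, to 8.36 to 9.02 on the late arrays. Fbxo2, a ubiquitin ligase subunit that binds glycoproteins, rose 6.37-fold. Pvalb, the calcium buffer parvalbumin, was detected on 1 middle array and all late arrays and rose by 2.49 ± 0.22 (adjusted p = 6.19e-08), or by 1.83 with the block (adjusted p = 0.0133). Cox8b, a cytochrome oxidase subunit best known from heart and muscle, was likewise detected on 1 middle array and rose by 2.19. These folds start from a level partly at background. Of the controls, Rnase1 was detected on 4, Cox8b on 3 and Pvalb on 2.

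Dbp, a clock-controlled PAR bZIP transcription factor, read 10.03, 10.56 and 11.05 late and 7.71, 7.87 and 8.19 in the middle. The sides were apart by 2.62 ± 0.31 (adjusted p = 1.11e-06). Control 2 read 10.42, within the late range, and the other controls 7.63 to 8.45. The difference no longer passed with the slide block (1.35, adjusted p = 0.112) and did without control 2 (2.66, adjusted p = 3.25e-06). Of 12 clock and PAR bZIP genes 2 rose in all 4 pairs and 2 fell. These shares, over 12 genes, compare with 9.67% higher and 8.04% lower of all 7721 genes by their brightest probe, and 0 of the 12 passed with the slide block. Tef, a relative of Dbp, rose by 0.67 (0.36 with the block, adjusted p = 0.177). For Nr1d1, the clock repressor, the brightest probe read -0.97 and the other probes 0.26 and 0.56, which did not pass in all 4 pairs, so its direction is uncertain, and the brightest probe missed the block (-0.65, adjusted p = 0.131).

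**Figure D2:**
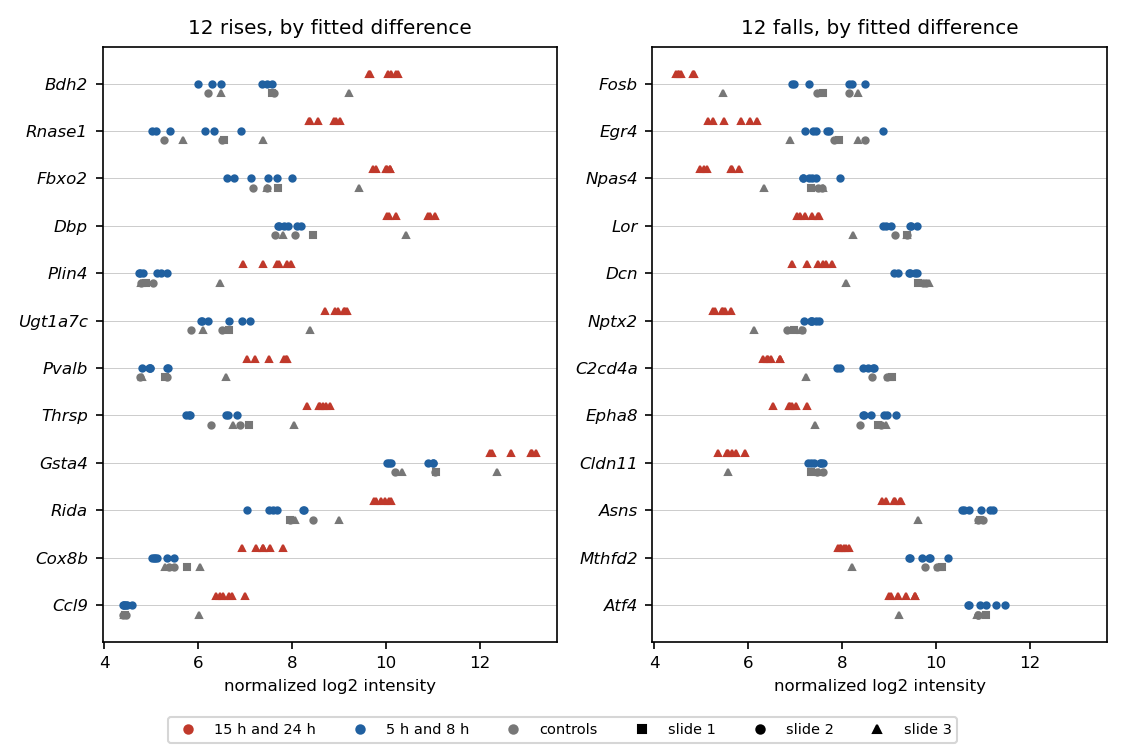
Normalized log2 intensity (horizontal axis) of the 12 rises and 12 falls named for their fitted difference, with 1 point per array: late arrays in red, middle arrays in blue, controls in grey, and marker shape by slide. Plin4, Ccl9 and Fosb were not detected on their lower side, so their place in this order rests on values not above background. The late and middle points do not overlap, which the choice of genes nearly fixed, and a grey triangle that stands away from the other grey points toward the red ones, as for Dbp at 10.42 and Atf4 at 9.22, is control 2.

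Fosb, Egr4 and Npas4, which neuronal activity induces, had the largest fitted falls of the named genes. Of 25 measured immediate early and activity genes, 14 were lower in all 4 pairs and 0 higher, against 8.04% lower and 9.67% higher of all 7721 genes by their brightest probe. Their median was -0.80 on the log2 scale, and -0.70 with the slide block, against -0.03 over all genes in both fits. On the mean of this list the late arrays lay at -1.03 to -0.82 from the middle mean, with 15 h at -0.86 to -0.82 and 24 h at -1.03 to -0.91. The controls other than control 2 lay at -0.07 to 0.13, control 2 at -0.42 and the 10 min arrays at -0.79 to -0.74. In the pooled test 22 of the 25 were lower and 2 higher, against 28.9% lower and 25.0% higher of all genes. With the block 9 were lower and 0 higher, against 5.98% and 6.19%, and without control 2 in the block 13 and 0. In all 4 pairs 2 were lower with the block. These shares over all 7721 genes stand beside the counts of each list below as well.

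Fosb, an AP-1 partner of Jun proteins, read 6.94, 7.72 and 8.50 on the middle arrays and was detected on 0 of 6 late arrays. It was at least 4.88-fold lower late (adjusted p = 2.3e-07, 0.0279 with the block). The controls read 7.46 to 8.34 except control 2, at 5.46, and Fosb had no detected array among the 3 at 10 min. Npas4, a neuron-specific factor induced by calcium entry, read 7.17 to 7.96 in the middle and 4.98 to 5.81 late, where 3 of 6 arrays detected it. Npas4 fell by 2.03 on the log2 scale (SE 0.16, adjusted p = 3.39e-08) and by 1.46 with the block (adjusted p = 0.00993).

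Egr4, a zinc finger factor of the Egr family, read 5.14, 5.67 and 6.18 late and 7.22, 7.57 and 8.87 in the middle. The highest middle value, that of 5 h replicate 1, stood apart from the others, and the difference was -2.06 ± 0.22, or -1.52 with the block (adjusted p = 0.034). Nptx2, a secreted pentraxin that clusters AMPA receptors, read 5.26 to 5.64 late and 7.18 to 7.51 in the middle, and differed by -1.93 ± 0.13 (adjusted p = 7.58e-09). Fosl2, another AP-1 subunit, differed by -1.11, with 9.30 to 9.44 on controls 2 to 5, and its blocked value was -1.09 (adjusted p = 0.00305). On Fosl2 control 2 read as controls 3 to 5 did, unlike on Fosb, while control 1 read 8.94 and the 10 min arrays 8.58 to 8.86.

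The cyclic AMP response element (CRE, searched as TGACGTCA, which reads the same on both strands) lies in many activity-induced promoters. In the RefSeq window of 250 bases before to 50 after a start site (GRCm38.p6), 2.03% of 27025 genes held it at any of their start sites. Of the 25 activity genes 20 had a window and 3 held the motif. Among those lower in all 4 pairs, 10 had a window and 1 held it, the granin gene Scg2, a precursor of secreted peptides, named for this match after its values were seen (-1.43, and -1.20 with the block). The window, on the minus strand at chr1:79439977-79440276, is shown with the motif in capitals, at -68 from the start site.
Scg2: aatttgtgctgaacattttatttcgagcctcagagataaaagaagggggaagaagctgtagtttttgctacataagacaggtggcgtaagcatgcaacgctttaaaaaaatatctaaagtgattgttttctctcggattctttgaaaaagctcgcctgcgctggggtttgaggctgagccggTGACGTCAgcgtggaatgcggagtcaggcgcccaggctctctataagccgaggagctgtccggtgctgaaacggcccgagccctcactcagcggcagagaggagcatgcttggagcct

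The next list holds Atf4, its targets and genes of amino acid supply. Of 29 measured, 15 fell in all 4 pairs and 1 rose, with a median of -0.82. On the list mean the 15 h arrays lay at -0.65 to -0.60 and the 24 h arrays at -1.0 to -0.94, against -0.20 to 0.23 on the middle arrays and 0.03 to 0.13 on the controls other than control 2. Control 2 lay at -0.82 and the 10 min arrays at -0.95 to -0.87, as low as the late arrays. With the slide block the result of this list depends on control 2. In the pooled test 24 of the 29 were lower and 2 higher. With the slide block 4 were lower and 1 higher, with a median of -0.41, and without control 2 in the block 20 and 2, with a median of -0.96. In all 4 pairs 0 of the 29 passed with the block, and without control 2 in it 14 were lower.

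Atf4, the transcription factor of the pathway, read 9.0, 9.28 and 9.56 late and 10.68, 11.01 and 11.47 in the middle. Controls 1, 3, 4 and 5 read 10.88 to 11.07 and control 2 9.22. The sides differed by -1.74 ± 0.21 (adjusted p = 1.95e-06), another Atf4 probe by -1.57, and the difference did not pass with the block (-0.89, adjusted p = 0.112), nor did that of Mthfd2, a mitochondrial folate enzyme (-1.74, and -0.99 with the block, adjusted p = 0.111). Without control 2 in the block both passed, at -1.72 (adjusted p = 1.03e-05) for Atf4 and -1.90 (adjusted p = 1.05e-05) for Mthfd2. Asns, asparagine synthetase, read 8.86 to 9.25 late and 10.55 to 11.23 in the middle, and its difference of -1.79 ± 0.17 (-1.25 on another probe) passed with the block at -1.09 (adjusted p = 0.0244). The alanyl-tRNA and asparaginyl-tRNA synthetase genes Aars and Nars, which charge tRNA with their amino acids, differed by -1.05 and -0.90, and by -0.76 and -0.60 with the block (adjusted p = 0.0185 and 0.0316). The late arrays of Aars, at 10.40 to 10.52, lay below all 5 controls, at 10.80 to 11.70.

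The composite element bound by ATF4 with C/EBP proteins (CARE) was searched as TGATGNAA on both strands. It was found in the window of 4.51% of the 27025 genes. Of the 29 measured genes 24 had a window and 9 held it, and of the 15 that fell 11 had a window and 5 held it, Asns, Aars, Gars, Chac1 and Vldlr. Gars, the glycyl-tRNA synthetase gene (-0.65), Chac1, a glutathione-degrading enzyme gene (-1.35), and Vldlr, a lipoprotein and reelin receptor gene (-0.70), were named for the match after their values were seen. All 3 missed the slide block, at -0.35, -0.56 and -0.49 (adjusted p = 0.152, 0.229 and 0.134). The first 4 windows are shown so that the element can be compared among genes that fell in all 4 pairs; the capitals mark it, as TGATGNAA or its reverse complement. A match is a description of these letters, not a site shown to be used. Asns lies on the minus strand at chr6:7693160-7693459, Aars on the plus strand at chr8:111033592-111033891, Gars on the plus strand at chr6:55037751-55038050 and Chac1 on the plus strand at chr2:119350992-119351291.
Asns: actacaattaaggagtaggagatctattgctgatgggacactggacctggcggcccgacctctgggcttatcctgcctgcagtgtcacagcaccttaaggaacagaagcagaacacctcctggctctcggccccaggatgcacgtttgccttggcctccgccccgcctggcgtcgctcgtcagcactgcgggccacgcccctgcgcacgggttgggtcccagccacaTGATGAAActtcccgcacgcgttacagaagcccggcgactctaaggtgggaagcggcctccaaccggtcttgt
Aars: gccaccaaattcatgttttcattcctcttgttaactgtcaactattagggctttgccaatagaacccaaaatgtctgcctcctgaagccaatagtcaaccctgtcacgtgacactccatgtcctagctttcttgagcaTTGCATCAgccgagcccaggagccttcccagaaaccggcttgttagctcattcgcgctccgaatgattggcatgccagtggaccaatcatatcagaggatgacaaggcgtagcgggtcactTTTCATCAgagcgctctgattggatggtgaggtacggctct
Gars: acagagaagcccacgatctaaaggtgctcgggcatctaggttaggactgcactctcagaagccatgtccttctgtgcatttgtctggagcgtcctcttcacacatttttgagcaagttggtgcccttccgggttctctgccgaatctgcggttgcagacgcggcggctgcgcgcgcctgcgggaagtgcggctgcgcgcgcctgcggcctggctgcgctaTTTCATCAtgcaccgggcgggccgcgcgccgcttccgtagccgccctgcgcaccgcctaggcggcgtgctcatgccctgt
Chac1: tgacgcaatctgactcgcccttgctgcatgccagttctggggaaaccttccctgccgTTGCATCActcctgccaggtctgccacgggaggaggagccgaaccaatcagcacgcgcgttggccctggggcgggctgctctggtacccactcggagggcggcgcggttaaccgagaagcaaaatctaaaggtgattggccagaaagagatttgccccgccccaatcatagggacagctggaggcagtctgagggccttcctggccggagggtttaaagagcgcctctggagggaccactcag
The element starts at -23 from the start site in Asns, at -30 in Gars and at -193 in Chac1. Aars holds 2 matches, at -112 and 10.

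Of 24 measured genes of cholesterol and fatty acid synthesis 15 fell in all 4 pairs and 0 rose, with a median of -0.73. In the pooled test 20 were lower and 0 higher, with the slide block 9 (median -0.66), and without control 2 in the block 16 (median -0.93). On the list mean 15 h and 24 h were alike, at -0.83 to -0.74 and -0.82 to -0.75, while 5 h lay at 0.06 to 0.17 and 8 h at -0.16 to -0.10. Controls 3 and 5 lay at 0.06 and 0.05, controls 1 and 4 at -0.25 and -0.22, and control 2 at -0.64. The 10 min arrays lay at -0.74 to -0.66, next to the late arrays. Lss, lanosterol synthase, read 6.29, 6.65 and 6.87 late and 7.85, 8.12 and 8.29 in the middle, a difference of -1.47 ± 0.14 (adjusted p = 1.51e-07), and -0.96 with the block (adjusted p = 0.0245). Fdps, which makes farnesyl diphosphate, read 11.06 to 11.36 late against 12.43 to 12.84 and differed by -1.42 (-1.20 with the block). Hmgcs1, the first committed enzyme of the mevalonate pathway, differed by -0.75 (-0.69 with the block). The sterol response element, searched on both strands, was in 0.27% of all genes' windows and in 0 of the 18 windows of this list, which says only that its letters are not there.

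**Figure D3:**
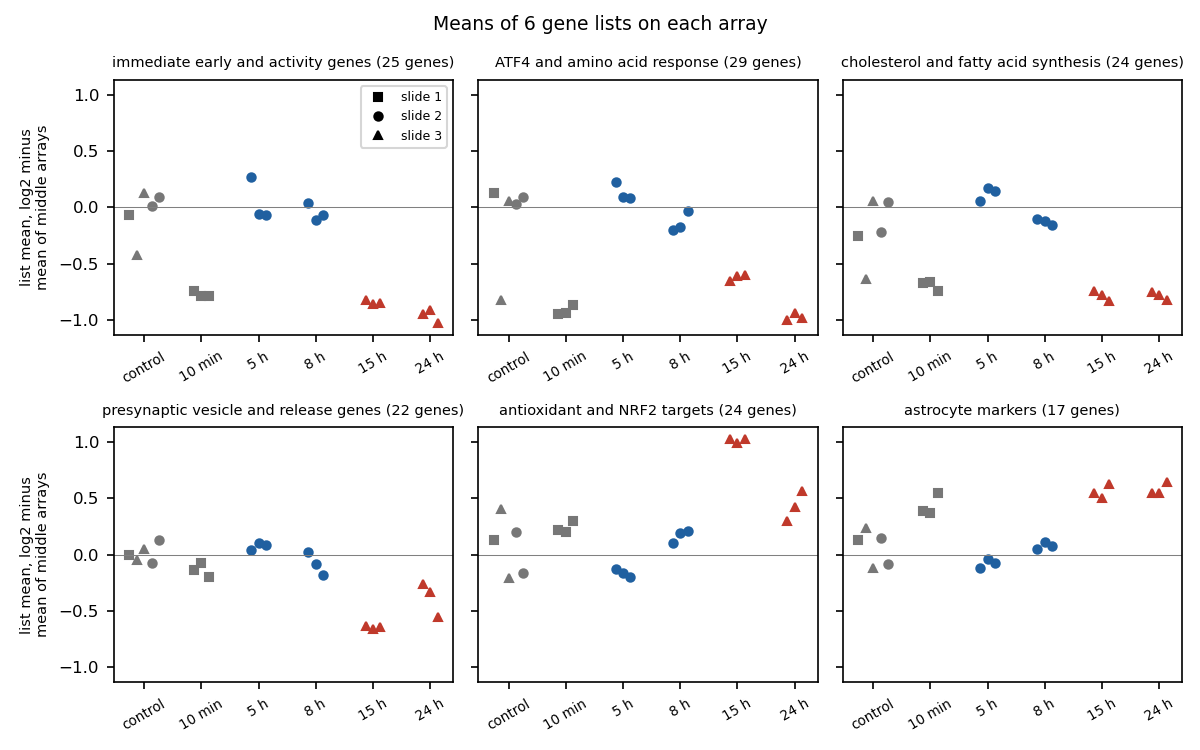
Mean of 6 gene lists on each array (vertical axis, log2 intensity minus the mean of the 6 middle arrays), by group along the horizontal axis, with late arrays in red, middle arrays in blue, controls and 10 min arrays in grey and the slide as marker shape. The antioxidant list is highest at 15 h (0.99 to 1.03) and lower at 24 h (0.30 to 0.57), and control 2 lies at -0.82 on the ATF4 list.

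Of 22 presynaptic genes 8 fell in all 4 pairs and 0 rose (median -0.50, and -0.46 with the block). Pooled, 16 were lower, and 8 with the block. On the list mean control 2 lay at -0.05, among the other controls at -0.07 to 0.13. The 15 h arrays lay at -0.66 to -0.63, below the 24 h arrays at -0.55 to -0.26. Slc17a7, which loads glutamate into vesicles, read 6.48, 6.60 and 7.51 late and 7.61, 8.16 and 8.45 in the middle, with all 5 controls at 7.73 to 8.32. The difference was -1.31 ± 0.13 (adjusted p = 2.07e-07), and -1.43 with the block (adjusted p = 0.00669). Sncb, the synaptic protein beta-synuclein, differed by -1.20 and Cplx1, a regulator of vesicle fusion, by -0.92, and by -1.07 and -0.71 with the block.

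On the postsynaptic side 3 of 15 receptor and scaffold genes fell in all 4 pairs and 0 rose (median -0.36). These were Nrgn, a postsynaptic calmodulin-binding protein, Camk2a, the calcium- and calmodulin-dependent kinase, and Shank3, a scaffold of the postsynaptic density. Nrgn read 7.12, 7.30 and 7.88 late and 8.66, 9.04 and 9.19 in the middle. All 5 controls read 8.60 to 9.23, so that the late arrays stood below every middle and control array. The difference of Nrgn was -1.56 ± 0.12 (adjusted p = 2.82e-08), and -1.56 also with the block (adjusted p = 0.00316). Camk2a and Shank3 differed by -0.98 and -0.86 (-1.0 and -0.67 with the block). Of 9 voltage-gated channel genes 2 fell, Hcn2, a pacemaker channel, and Cacna1g, a T-type calcium channel, each by 1.05 on the log2 scale, and both missed the block (adjusted p = 0.055 and 0.255).

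Of 24 genes of the neuronal cytoskeleton and growth, 5 fell in all 4 pairs and 0 rose (median -0.42, and -0.34 with the block). Nefm, a neurofilament subunit, differed by -0.98 (-0.84 with the block, adjusted p = 0.0165). Gap43, a growth cone protein, read 12.07 to 12.45 late and 12.67 to 13.36 in the middle and differed by -0.73, and Dcx, a microtubule protein of young neurons, by -0.51 with -0.30 on another probe that did not pass in all 4 pairs. Both missed the block (adjusted p = 0.0984 and 0.0793). Of 17 projection neuron transcription factors 3 fell and 0 rose. Neurod2, a neuronal differentiation factor, differed by -0.66 and Foxp1, a forkhead factor, by -0.76, and neither passed with the block. The brightest probe of Etv1 read -0.56 and its other probe -0.06, so its direction rests on 1 probe, which missed the block as well (-0.33, adjusted p = 0.184).

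The labelled cell type was checked against its markers. Of 27 neuronal cytoskeleton and growth genes with a named probe 23 were detected on all 12 arrays, while Nefl, Nefh and L1cam were detected on none. The summed normalized intensity of the 24 tested genes was 58646 to 69080 on the late arrays, 76732 to 96065 on the middle arrays and 71264 to 88943 on the controls. Astrocyte markers summed to 47300 to 54715 late, 29294 to 37432 in the middle and 31474 to 39274 on the controls, and 12 of 19 were detected on all 12 arrays, with Slc1a2 and S100b on none. Oligodendrocyte lineage markers summed to 9147 to 10120 late, 10428 to 12858 in the middle and 9443 to 12192 on the controls. The neuronal and oligodendrocyte sums were thus lower late and the astrocyte sum higher, while the interneuron sums, at 9771 to 10742 late and 10311 to 11036 in the middle, overlapped. The part of these sums in the results on each cell type was not tested.

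Astrocyte markers were higher late in 10 of 17 genes tested and lower in 2 in all 4 pairs (median 0.64, and 0.59 with the block). In the pooled test 13 were higher and 2 lower, and with the block 8 and 1. On the list mean the late arrays lay at 0.50 to 0.65 and the 10 min arrays at 0.37 to 0.55. Apoe, the lipid carrier of astrocytes, read 12.14, 12.43 and 12.61 late and 10.93, 11.21 and 11.42 in the middle. The controls read 11.19 to 11.87, below all late arrays, and the 10 min arrays 12.30 to 12.37. Apoe rose by 1.22 ± 0.11 (adjusted p = 6.19e-08), and by 1.02 with the block (adjusted p = 0.00843). Clu, a secreted chaperone, rose by 1.11 and Gfap, the astrocyte intermediate filament, by 1.06 (0.95 and 0.85 with the block). Gfap was detected on 5 of the middle arrays.

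Of 15 progenitor and Notch genes 5 rose in all 4 pairs and 0 fell (median 0.29, and 0.46 with the block). Prom1, a membrane protein of progenitors, read 10.86 to 11.12 late and 9.09 to 10.09 in the middle, and rose by 1.29 (1.13 with the block). The receptor Notch1 rose by 0.90 and Id4, an inhibitor of bHLH factors, by 0.93 (0.79 and 0.98 with the block). Pax6, Notch2, Msi1 and Gas1 of this list were detected on none of the 12 arrays.

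Markers of microglia and macrophages were higher in 6 of the 8 tested genes and lower in 0 (median 0.84, and 0.58 with the block). All 8 were higher in the pooled test, and 3 with the block. Their sum was small, at 1576 to 2146 late, 829 to 1310 in the middle and 932 to 1234 on the controls, and 2 of 17 genes with a named probe were detected on all 12 arrays. The defining markers Aif1, Itgam, Fcer1g, Ptprc and P2ry12 were detected on none. Lgals3, a galectin, rose by 1.29 and Lyz2, lysozyme, by 1.25 (1.03 and 1.44 with the block). Adgre1, a macrophage surface receptor, was detected on 4 middle and 2 control arrays and rose by 0.78 (0.54 with the block, adjusted p = 0.053).

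Inflammatory and interferon genes were higher in 6 of 13 and lower in 0 (median 0.65, and 0.77 with the block). Pooled, 10 were higher and 2 lower, and with the block 7 and 0. B2m, the light chain of class I antigen presentation, read 10.57, 10.66 and 10.83 late and 9.11, 9.33 and 9.78 in the middle. Controls read 9.53 to 10.09, below all late arrays and overlapping the middle ones. B2m rose by 1.26 ± 0.10 (adjusted p = 2.54e-08), and by 1.16 with the block (adjusted p = 0.00316). The chemokine gene Ccl9 was detected on 0 middle arrays and was at least 2.36-fold higher late. On Ccl9 control 2 read 6.02, against 4.40 to 4.47 on the other controls. Ccl4, another chemokine, was detected on 1 middle array and rose by 1.49 (1.05 with the block, adjusted p = 0.0193). Ccl9 and Ccl4 were each detected on all 6 late arrays and on all 3 arrays at 10 min. Either group alone was enough for them to be tested. Detection on the late arrays alone lets a gene enter the test, and its part in the count of rises in this list was not tested.

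Smooth muscle actin, Acta2, a marker of mural cells and myofibroblasts, rose by 2.10 ± 0.16 (1.19 on each of its other probes). It read 10.44 to 11.34 late, 8.60 to 9.19 in the middle and 10.85 to 11.11 at 10 min, with control 2 at 10.08 and the other controls at 8.92 to 9.16. Igfbp7, a secreted binding protein of vessels, rose by 1.28. Dcn, the matrix proteoglycan decorin, went the other way, by -1.94 ± 0.22, and missed the block (-1.15, adjusted p = 0.0734; without control 2 in it -2.04, adjusted p = 3.69e-05). Of 9 vascular and fibroblast markers tested 4 rose and 1 fell, and 11 of 20 with a named probe, among them Col1a1, Col1a2, Pecam1, Cldn5 and Cdh5, were detected on none of the 12 arrays. Of 17 collagens, laminins and integrins 5 rose and 1 fell. Lamb2, a laminin chain, rose by 1.24 (1.07 with the block) and Col18a1, a basement membrane collagen, by 0.85, which missed the block (0.66, adjusted p = 0.159).

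Of 8 oligodendrocyte lineage markers 4 fell in all 4 pairs and 0 rose (median -0.39, and -0.19 with the block). On the list mean the late arrays lay at -0.55 to -0.36, the 10 min arrays at -0.57 to -0.49 and control 2 at -0.45. Cldn11, a tight junction protein of myelin, read 5.36 to 5.93 late and 7.27 to 7.59 in the middle, with control 2 at 5.58 and the other controls at 7.33 to 7.60. Its difference of -1.82 missed the block (-0.82, adjusted p = 0.202). Mbp, a myelin protein, differed by -0.61 (-0.47 with the block, adjusted p = 0.0409). Ugt8a, which makes galactolipids of myelin, was detected on 0 late arrays and was at least 1.35-fold lower, which missed the block (-0.34, adjusted p = 0.417). The myelin genes Mog, Mag, Mobp, Opalin and Mal were detected on none of the 12 arrays.

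Among 11 interneuron markers and neuropeptides Pvalb rose and 2 fell. These counts, over 11 genes, compare with 9.67% higher and 8.04% lower of all genes. Reln, the secreted protein of Cajal-Retzius cells and interneurons, differed by -0.59 (-0.52 with the block), and Tac1, the substance P precursor, was detected on 0 late arrays and was at least 1.25-fold lower. Of 19 with a named probe 8, among them Gad2, Vip, Calb1 and Lhx6, were detected on none of the 12 arrays.

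Antioxidant and NRF2 target genes were higher late in 8 of 24 in all 4 pairs and lower in 0 (median 0.66, and 0.64 with the block). In the pooled test 17 were higher and 2 lower, and with the block 6 and 0. On the list mean 15 h lay at 0.99 to 1.03 and 24 h at 0.30 to 0.57. The 8 h arrays lay at 0.10 to 0.21, the 5 h arrays at -0.20 to -0.13, control 2 at 0.41 and the other controls at -0.21 to 0.20. Besides Gsta4, the metallothionein gene Mt3, whose protein binds zinc and copper, read 12.37 to 12.64 late and 10.85 to 11.52 in the middle and rose by 1.25 ± 0.10 (adjusted p = 4.38e-08). Gpx1, a glutathione peroxidase, rose by 1.15 and Fth1, the ferritin heavy chain that stores iron, by 0.94. With the block these rises were 1.06, 0.91 and 0.82 (adjusted p = 0.00801, 0.0197 and 0.0175).

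Of 24 measured genes induced by hypoxia, 3 rose and 2 fell in all 4 pairs, with a median of -0.03. These counts lie near the shares over all genes (9.67% higher and 8.04% lower) and are not a result about the list. Bhlhe40, a repressor of the basic helix-loop-helix family, rose by 0.86 and Plod1, a collagen lysyl hydroxylase, by 0.68. Slc2a3, the neuronal glucose transporter, read 9.66, 9.79 and 10.09 late and 10.48, 10.75 and 10.95 in the middle, with all controls at 10.49 to 10.87. Slc2a3 differed by -0.92 ± 0.09 (adjusted p = 1.03e-07), and by -0.78 with the block (adjusted p = 0.00823).

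Glycolytic enzymes were lower in 4 of 14 and higher in 1 (median -0.26, and -0.36 with the block). The lactate dehydrogenase subunits moved in opposite directions. Ldha, the subunit common in glycolytic tissue, read 11.13, 11.22 and 11.38 late and 11.94, 12.08 and 12.20 in the middle, and differed by -0.83 ± 0.10 (adjusted p = 1.85e-06). Ldhb, the heart-type subunit, read 11.50 to 11.79 late and 10.68 to 11.08 in the middle, and rose by 0.77 ± 0.08 (adjusted p = 2.11e-07). With the block the values were -0.94 and 0.91 (adjusted p = 0.00351 and 0.00383). The controls of Ldha read 11.35 to 12.17, with the lowest of them within the late range. Hk2, an inducible hexokinase, differed by -1.69 ± 0.21 (adjusted p = 1.67e-06), and by -1.80 with the block (adjusted p = 0.0146). Its controls, at 6.96 to 8.50, overlapped both the late arrays at 6.54 to 7.04 and the middle arrays at 8.12 to 8.97.

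Of 13 heat shock genes 1 rose and 2 fell, with a median of -0.17 that was 0.08 with the block. Cryab, the small heat shock protein alpha B-crystallin, rose by 1.75 ± 0.16 (1.13 with the block, adjusted p = 0.0227). Hsph1, a nucleotide exchange factor of Hsp70, and Stip1, which joins Hsp70 to Hsp90, differed by -0.68 and -0.56, and Stip1 missed the block (-0.48, adjusted p = 0.087). Of 16 endoplasmic reticulum chaperones 1 rose, the disulfide isomerase Pdia4, by 0.59, and 0 fell in all 4 pairs (median -0.24). The heat shock and chaperone counts lie near the shares over all genes (9.67% higher and 8.04% lower) and are not a result about these lists.

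Lysosome and autophagy genes were higher in 9 of 23 and lower in 2 (median 0.28, and 0.32 with the block). Pooled, 13 were higher and 6 lower, against 25.0% and 28.9% of all genes, and with the block 2 and 2, against 6.19% and 5.98%. The pooled falls and the blocked counts thus lie near those shares. Wipi1, an autophagosome protein, read 7.95 to 8.64 late and 6.81 to 7.43 in the middle, with all controls at 7.13 to 7.60, and rose by 1.14 ± 0.08 (adjusted p = 7.91e-09), or by 0.98 with the block (adjusted p = 0.00316). The lysosomal hexosaminidase gene Hexa rose by 0.63, and the protease gene Ctsd by 0.94, which missed the block (0.65, adjusted p = 0.0631).

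Of 28 proteasome subunits 0 passed in all 4 pairs in limma in either direction (6 passed late against middle, 3 each way), and of 25 replication-dependent and linker histones 0 did (8 passed late against middle). The histone median of 0.24 was -0.01 with the slide block and 0.42 without control 2 in it, and the middle arrays alone spread from -0.51 to 0.56 on the list mean. Of 42 respiratory chain and ATP synthase genes 2 rose, Uqcrh and Ndufa8, by 0.50 and 0.39, and of 28 cytosolic ribosomal proteins 2 rose, Rpl13a and Rpl14, by 0.56 and 0.54. Of 35 translation factors 4 fell, among them Eif4a1, an RNA helicase of initiation, Eif2b4 and Eif5b, by 0.39 to 0.55 on the log2 scale, and 4 of 31 splicing factors fell, among them Srsf2, Snrpb and Sf3a1, by 0.35 to 0.61. Arid1a and Smarca4, subunits of the BAF remodelling complex, were the 2 of 23 chromatin genes that fell (-0.67 and -0.53, and -0.09 and -0.17 with the block). The counts of falling translation, splicing and chromatin genes lie near the 8.04% of all genes lower in all 4 pairs, and those of rising respiratory and ribosomal genes lie below the 9.67% higher. In the pooled test 13 of the 35 translation genes were lower and 1 higher. Of the 31 splicing genes 10 were lower and 0 higher, and of the 23 chromatin genes 9 and 3. Of all genes 28.9% were lower and 25.0% higher in that test. Of the genes named in this paragraph only Rpl13a and Srsf2 passed the block.

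Of 25 cell cycle genes 4 fell in all 4 pairs and 0 rose (median -0.43). On the list mean the late arrays lay at -0.53 to -0.19, the 10 min arrays at -0.41 to -0.36 and control 2 at -0.75. The mitotic genes Bub1b, Nusap1 and Plk1 did not pass with the block, where the median was -0.06, and did without control 2 in it (-1.18, -1.05 and -1.0). On Nusap1 control 2 read 7.22, below the late arrays at 7.53 to 7.88, and the other controls 8.52 to 8.72. Bub1b was detected on 0 late arrays and was at least 1.74-fold lower. Of 18 apoptosis and p53 target genes 1 rose, the survival gene Bcl2, on a probe at 0.54, with its other probes at -0.15, 0.69 and 0.55. It missed the block (0.29, adjusted p = 0.422), where 0 genes of that list passed. The count of rises in the apoptosis list lies below the 9.67% of all genes higher in all 4 pairs.

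**Figure D4:**
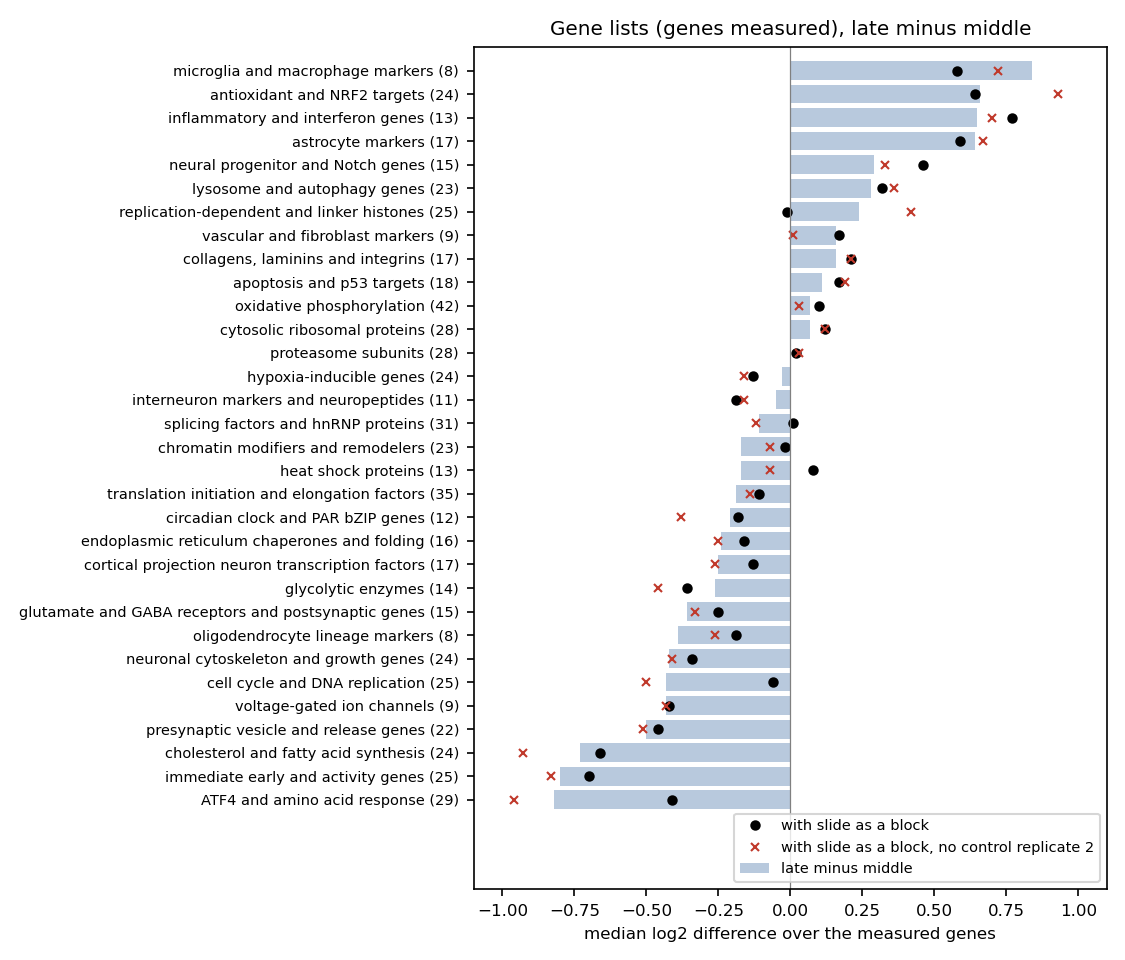
Median log2 difference, late minus middle, over the measured genes of each list (bars, with the number of genes in brackets), with the slide block (black points) and with the block without control 2 (red crosses). Lists of activity, sterol and synaptic release genes lie below 0 and astrocyte, microglia and antioxidant lists above 0 in all 3 fits, while the ATF4 list moves from -0.82 to -0.41 with the block and to -0.96 without control 2.

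The 3 further genes among the largest falls belong to none of the lists: Lor, loricrin of the epidermal cornified envelope (-1.94, and -1.50 with the block, adjusted p = 0.0061), Epha8, an ephrin receptor (-1.84, and -1.42 with the block, adjusted p = 0.0174), and C2cd4a (-1.87, and -1.20 with the block, adjusted p = 0.0518). The naming rules gave 97 genes, on 98 probes, and Scg2, Gars, Chac1 and Vldlr, named for a motif, are not among them. On all 98 the late and middle arrays did not overlap, which the rule that chose them nearly fixed and from which nothing is read. Over all probes, every late array lay above every middle array on 13.1% and below on 13.2%. With the slide block 63 of the 98 passed and 35 did not, and without control 2 in the block 88 passed. Of the 1368 genes whose brightest probe passed all 4 pairs, 209 had further tested probes, 252 in all, of which 234 pointed the same way, 95 passed all 4 pairs in that direction and 0 in the other.

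**Figure D5:**
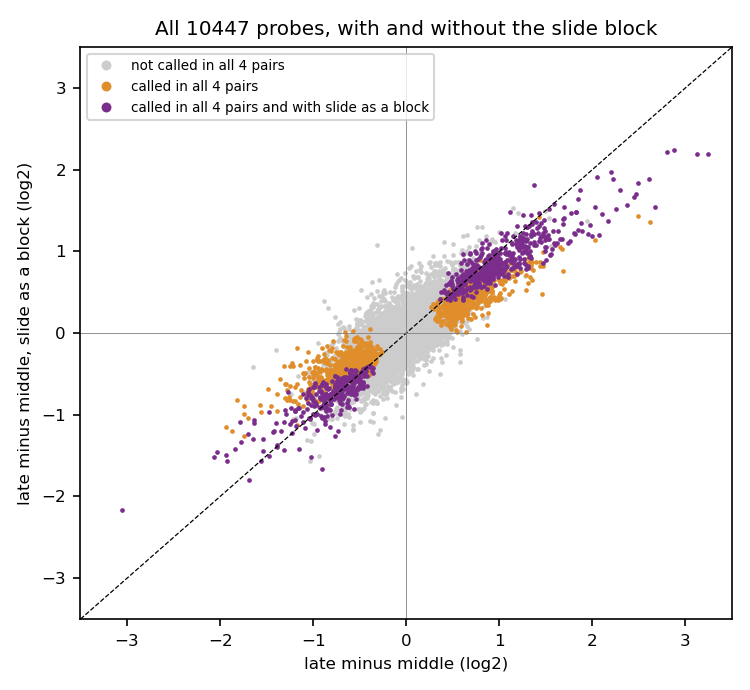
Late minus middle of each of the 10447 probes (log2) without (horizontal axis) and with (vertical axis) slide as a block. Grey points did not pass in all 4 pairs, orange points did, and purple points passed the block as well. The dashed line marks equal values, and over the probes higher in all 4 pairs the median is 0.77 along the horizontal axis and 0.64 along the vertical axis.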

How the data were processed

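The deposited BeadStudio profile gives, per the file headers, an average signal for each probe and array as an intensity without normalization, plus a detection value, a score equal to 1 minus the detection p. The authors' normalized values are a ratio of each intensity to the median of its array and then to the median of the controls, recomputed within 1e-3 in 24607 of 24607 rows. Control columns of that table carry other control arrays than labelled, so arrays were taken from the profile by their position, and 120 profile columns were not used. Gene names come from the profile's own identifiers, paired through identical values with the platform annotation (20614 of 24620 probes, 15785 genes). Of 24601 rows paired by value, 2 carried the same identifier in both files. With the profile's names Actb and Gapdh had a mean signal of 13474.4 and 12431.7, and with the other names 46.2 and 448.0. Every named gene rests on this choice.

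After 7 bacterial probes were left out, intensities were corrected and quantile-normalized with neqc (limma 3.58.1, R 4.3.3, offset 16) on the log2 scale. The 10447 probes with detection p under 0.01 on at least 3 of 20 arrays were kept, of which 9120 carried 1 symbol, for 7721 genes. One limma model with 6 groups was fitted over 20 arrays (two-sided tests, median SE 0.0964), with Benjamini-Hochberg adjustment over all probes within each comparison at 0.05. A probe detected on no array of the lower side has a bound on its fold: the mean of the higher side against, per array, the higher of its own value and the lowest signal of detected probes. On simulated data for late against middle (10447 probes), 78 of 100 differences of 0.5 and 97 of 100 of 1 on the log2 scale were recovered, 27 and 83 of them in all 4 pairs, and 10 of 185 calls were false. The simulated arrays had independent noise, few changed probes and no slide effect. They cannot show how many calls are false where times and slides coincide.

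The named genes are the 12 largest rises and falls past all 4 pairs and detected on the whole higher side, the 6 largest each way that also pass the slide block, and up to 3 members of each list with the smallest adjusted p. Scg2, Gars, Chac1 and Vldlr were named outside these rules, for a promoter match. For a gene of a list the probe with the highest mean was used. The comparison, the lists and the rules were chosen with earlier results of these data known. Replicate numbers did not pair the arrays: correlations of same-numbered deviations ran from -0.585 to 0.284. The alternatives tried were a fixed or random slide block, other normalizations, filters, weights and thresholds, and leaving out each array.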

Additional observations from a re-analysis of the deposited data

Results flagged for a closer look

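For the named genes, the highest or lowest of the 5 controls, the 6 late or the 6 middle arrays was compared with its nearest neighbour, as a share of the range of its group. Of 294 such groups 27 held an array that stood apart by this measure. Chance alone marks about 1 in 20 groups, but these groups share the same arrays. They are not separate observations, so the count is not a test. Control 2 was that array in 20 of the 27. It lay on the late side for the rises of Fbxo2 (a gap of 0.757 of the range), Plin4 (0.853), Ccl9 (0.954), Ugt1a7c (0.723), Gfap (0.782), Adgre1 (0.893) and Acta2 (0.79). It also lay on the late side for the falls of Npas4 (0.788), Lor (0.781), Dcn (0.868), C2cd4a (0.765), Cldn11 (0.869), Asns (0.926), Mthfd2 (0.806), Atf4 (0.898), Nars (0.83), Nusap1 (0.868), Plk1 (0.775), Foxp1 (0.825) and Lss (0.824). Control 1 stood apart on Pdia4 (0.766) and Fosl2 (0.722), 24 h replicate 1 on Ldhb (0.744) and Uqcrh (0.766), 5 h replicate 1 on Egr4 (0.691) and Npas4 (0.639), and 5 h replicate 2 on Eif4a1 (0.637).

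The difference from the controls of the same slide was itself tested between late and middle OGD, through the fit with slide as a block, and it differed in 1226 probes, 621 higher and 605 lower.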

How the results depend on the processing

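Late against middle gave 5491 probes, and 1752 in all 4 pairs. A fixed slide block gave 1226 and 27, a random one 3216 and 763, and a fixed block without control 2 gave 2199 and 821. A minimum of 2-fold left 427 and 397. Array weights gave 2925 in all 4 pairs and an adjusted p under 0.01 gave 969. The authors' normalized values gave 5714, of which 1555 were higher (27.2%, against 46.4% here), and 1601 in all 4 pairs, 600 higher and 1001 lower, with the median of all probes at -0.124. Scaling to the 75th percentile gave 5250 (2636 higher, 50.2%) and 1634 (978 higher, 59.9%). With the replicate block, though the numbers pair no arrays, the counts were 5343 and 1648. Leaving out 1 array gave 5008 to 5793, and 1218 (without 24 h replicate 3) to 2109 (without control 2) in all 4 pairs. It gave 878 (without control 3) to 3218 (without control 2) for late against the slide 3 controls, 0 to 1353 (without control 3) between slide 3 and slide 2 controls, and 0 for middle against the slide 2 controls. A lone control left on a slide was assumed to vary like the other groups. Of the 98 named probes 63 passed the fixed slide block, 88 that block without control 2, 97 the random block and 97 the authors' values (Ndufa8 missed both). In each other refit all 98 passed for late against middle, and 0 changed direction in any. The cause of these changes was not tested. Low signal over background limits Plin4, Ccl9, Fosb, Bub1b, Tac1 and Ugt8a to a bound on the fold.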
